A study of Mus musculus with 6 samples.

Results

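Metalloproteinases of the MMP, ADAM and ADAMTS families, the ADAMTS-like proteins, the TIMP inhibitors and Reck were followed in mouse granulosa cells with and without a functional interleukin-22 receptor gene. Members were the protein-coding rows of the deposited count table whose symbol is an Mmp, Adam, Adamts or Adamtsl number, Timp1 to Timp4, or Reck. The pattern found 84 of 55860 genes: 22 MMPs, 33 ADAMs, 19 ADAMTS, 5 ADAMTSL and 5 inhibitor genes. The rule used only names and biotype, not measured values. Granulosa cells line the ovarian follicle and support the oocyte within it. They were isolated from ovaries on a density gradient, kept in serum-supplemented medium overnight, and sequenced as bulk RNA. The 2 groups were Il22r+/+ mice and Il22r-/- mice, with 3 libraries each and no treatment in the labels. Strain, age, the deleted part of the gene, and whether a library came from 1 animal or a pool are not stated in the labels.

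Follicle growth and ovulation require the follicle wall and basal lamina to be remodelled. MMPs cut collagens and other matrix proteins, and membrane-type MMPs such as MMP14 also activate pro-MMP2 at the cell surface. ADAMs shed growth factors, cytokines and receptors from the membrane, with ADAM10 and ADAM17 as the main sheddases. ADAMTS proteases cut proteoglycans such as versican or trim procollagens, and ADAMTS1 is known for its part in ovulation. TIMPs bind the active site of these proteases and block it, TIMP3 being the one held in the matrix and the broadest in range, and RECK is a membrane-anchored inhibitor.

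Library totals ran from 14948187 to 18116413 counted reads. The libraries separated by genotype on the first principal component (89.3% of variance, from 500 variable genes), and Il22r-/- replicate 3 stood apart on the second (score 14.5, the others between -8.93 and 1.22). Il22ra1, taken as the targeted receptor gene, was counted at 1, 5 and 4 reads in wild-type libraries and at 5, 2 and 0 in Il22r-/- ones, too few to check the genotype labels. Of 12 granulosa markers 10 were tested (4 called higher, 3 of them at least 2-fold, and 2 lower), and the 12 summed to 7373 to 8188 CPM in Il22r+/+ and 7296 to 8215 CPM in Il22r-/-, CPM being counts scaled to a common library total with TMM factors. Fshr, the receptor for follicle-stimulating hormone, had the largest change among them (log2 change 4.50 ± 0.41). Foxl2, Inha and Inhba each had at least 116.8 CPM in every library, while Cyp19a1 had 36 reads over the Il22r+/+ libraries against 1, and Amh 6 against 41. Markers of other cells were counted in the same way, and their calls are to be read beside the 45.7% called among all tested genes. In summed CPM, 7 ovarian surface and mesothelial markers had 240.1 to 243.0 in Il22r+/+ and 12.0 to 28.1 in Il22r-/- (4 of 7 tested called lower). The 9 theca and stroma markers had 682 to 703 and 226 to 386 (of 6 tested, 2 lower and 1 higher). The 7 smooth muscle markers had 276 to 332 and 363 to 586 (of 7 tested, 4 higher and 2 lower), and the 11 macrophage markers 9.13 to 11.7 and 29.3 to 89.2 (all 10 tested higher). The 7 endothelial markers stayed below 7.8 CPM (of 3 tested, 2 higher and 1 lower) and the 8 oocyte markers below 3.1 CPM (none called of 2 tested by edgeR). No marker in these lists was without reads in all 6 libraries, although Tcf21, Emcn, Cldn5, Zp2 and Dppa3 had none in Il22r+/+. In bulk RNA, fewer cells of a type and less RNA per cell cannot be told apart.

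Of the 84 members, 21 were lower and 14 higher in Il22r-/-, 12 were tested without a call, and 37 had too few reads for a test. A gene was called at a Benjamini-Hochberg adjusted p under 0.05 in edgeR's quasi-likelihood test across all genes. Of the 47 tested members 74.5% were called, and of all 15227 tested genes 45.7% were called (23.6% higher, 22.1% lower). In 37 of the 47 the values of the 2 genotypes did not overlap, and this held for 56.0% of all tested genes. Calls of at least 2-fold numbered 9 higher and 11 lower, against 14.3% of all tested genes in both directions together. The median log2 change of the tested members was -0.20, beside 0.03 over all tested genes. Genes that passed the read filter through 1 group alone had to differ, so these shares describe the tested genes and not the families. The p-values of single members with few reads in 1 group, Mmp12 among them, carry the same limit. By family, all 12 tested MMPs and all 4 tested ADAMTSL genes were called, 4 of the 5 inhibitors, 8 of 13 ADAMTS and 7 of 13 ADAMs. The calls by direction were inhibitors 0 higher and 4 lower, ADAMTSL 0 and 4, MMPs 5 and 7, ADAMs 2 and 5, and ADAMTS 7 and 1.

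**Figure D1:**
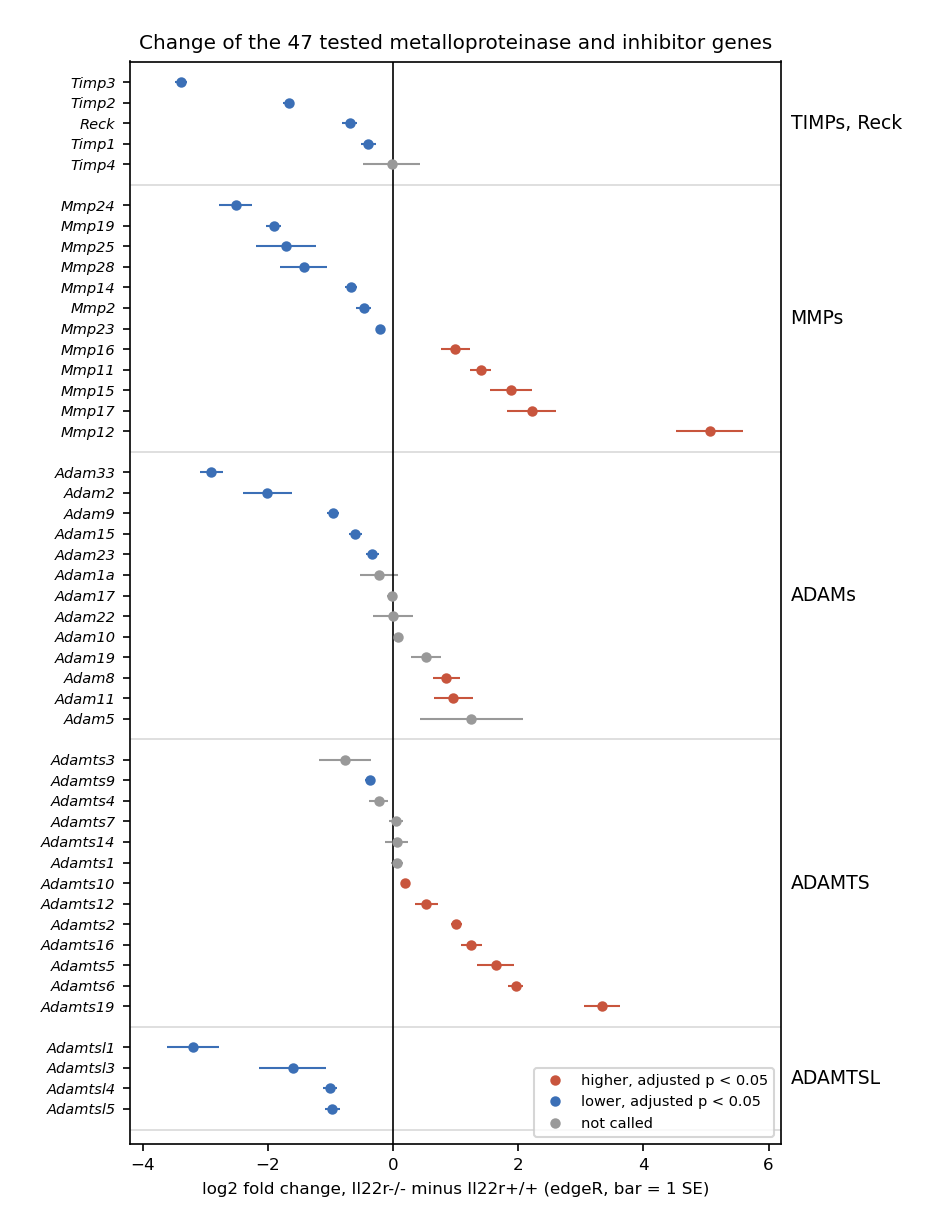
Log2 fold change (Il22r-/- minus Il22r+/+) of each of the 47 tested members on the horizontal axis, grouped by family, with bars of 1 standard error from edgeR and colours for the call. The inhibitors and ADAMTSL genes lie at or left of 0, and 7 of the 8 called ADAMTS genes lie to the right.

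Of the 5 inhibitors 4 fell, Timp3 by the most. Timp3 (ENSMUSG00000020044, mm10 chromosome 10, 86300372 to 86349506, plus strand) had 1428, 1525 and 1283 CPM in Il22r+/+ replicates 1 to 3 and 138, 132 and 135 CPM in Il22r-/-. The 2 groups were far apart, and the 3 Il22r-/- libraries differed by only a few CPM. The fall was 10.5-fold (log2 change -3.39 ± 0.10 SE, edgeR adjusted p = 8.09e-09). Timp3 lies within Syn3, a gene of the other strand, and Syn3 exons cover 21.3% of the Timp3 exon length. Summed over 3 libraries, Syn3 had 124 and 93 reads (Il22r+/+ first) and Timp3 71641 and 7146. The part of this overlap in the Timp3 value was not tested.

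Timp2 (chromosome 11, 118301069 to 118355740, minus strand), which inhibits MMPs and at the cell surface also takes part in pro-MMP2 activation by MMP14, had 971, 958 and 949 CPM in Il22r+/+. Its Il22r-/- libraries had 285, 296 and 325 CPM, less than the lowest Il22r+/+ library by a wide margin. This was a 3.18-fold fall (log2 change -1.67 ± 0.08, edgeR adjusted p = 3.91e-07). Timp1 (chromosome X, 20870166 to 20874735, plus strand, within Syn1), a secreted inhibitor of most MMPs, had 61.8, 70.2 and 65.3 CPM against 54.3, 55.3 and 40.0 CPM. The groups did not overlap, but the gap was small and Il22r-/- replicate 3 was the lowest. The log2 change of -0.40 ± 0.12 passed edgeR (adjusted p = 0.02). It did not pass with library size alone as scaling (adjusted p = 0.0802), without Il22r+/+ replicate 2 (0.0781) or without Il22r+/+ replicate 3 (0.0587), in a range from 0.000165 over the alternatives.

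Reck had 19.7, 19.9 and 22.9 CPM in Il22r+/+ and 12.2, 13.0 and 13.3 CPM in Il22r-/-, with no overlap (log2 change -0.70 ± 0.11, edgeR adjusted p = 0.000651). Timp4, an inhibitor best known from heart and fat, was near the detection limit at 1.23, 0.656 and 1.36 CPM against 0.735, 1.71 and 0.723 CPM. Its groups overlapped (log2 change -0.03 ± 0.45, edgeR adjusted p = 0.968), and its sign changed with library size alone as scaling (0.077). The summed mesothelial markers given above fell along with the inhibitors. The theca and stroma markers were also lower in sum, with 2 of 6 tested called lower and 1 higher. The part of either marker set in these falls was not tested.

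Because the TIMPs fell by different amounts, their make-up differed between genotypes. Levels of different genes are compared here on the FPKM values of the authors' table, that is, counts per gene length and a library constant. That constant was 0.936 to 0.939 times the count total in Il22r+/+ and 1.00 to 1.05 times in Il22r-/-. The 4 TIMPs summed to 508, 525 and 489 FPKM in Il22r+/+ and to 151, 156 and 148 FPKM in Il22r-/-. Timp3 held 35.5, 36.6 and 33.2% of that sum in Il22r+/+ and 11.2, 10.4 and 11.4% in Il22r-/-. The share of Timp1 was 14.1, 15.4 and 15.5% against 40.4, 40.3 and 31.0%, and that of Timp2 49.9% ± 1.71 (SD, n = 3) and 51.6% ± 5.07. Timp2 was thus the largest component of the sum in all 6 libraries, whereas Timp3 held more than Timp1 in every Il22r+/+ library and less in every Il22r-/- library.

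The summed MMP level was higher in Il22r-/-, and lower once Mmp11 was left out. All 22 MMPs summed to 369.8, 380.5 and 368.7 FPKM in Il22r+/+ and to 711, 544 and 518 FPKM in Il22r-/-. Without Mmp11 the sums were 196, 202 and 195 FPKM against 122, 147 and 143 FPKM. The ratio of summed TIMP to summed MMP FPKM was 1.36 ± 0.0300 (SD, n = 3) in Il22r+/+ and 0.262 ± 0.0423 in Il22r-/-, and without Mmp11 it was 2.57 ± 0.0572 and 1.11 ± 0.111. These are sums of transcript levels, not of active protein.

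**Figure D2:**
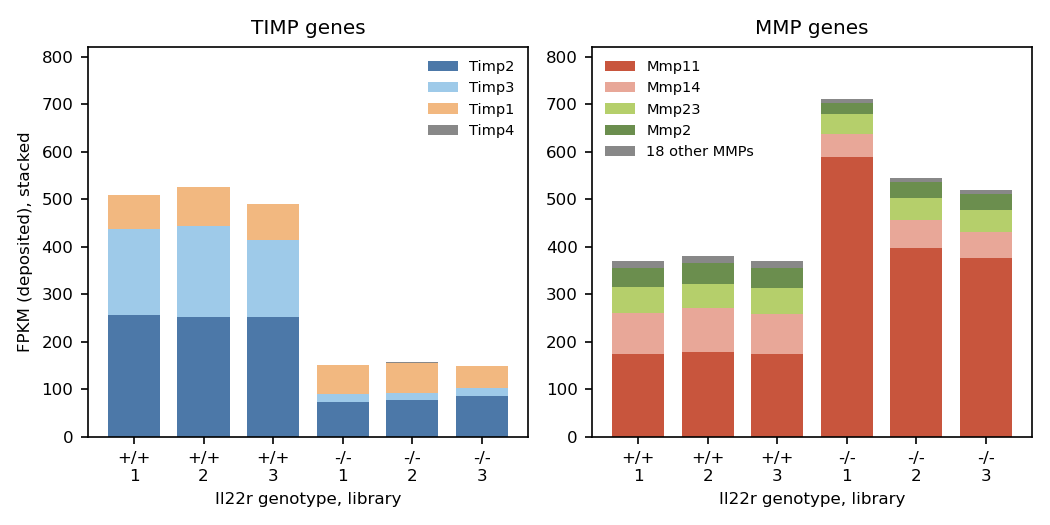
Deposited FPKM values stacked by gene for the 4 TIMPs (left) and the 22 MMPs (right) in each of the 6 libraries, on the same vertical scale from 0. The TIMP stacks stand at 489 to 525 FPKM in Il22r+/+ and 148 to 156 FPKM in Il22r-/-, while Mmp11 makes up most of the taller Il22r-/- MMP stacks.

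Mmp11, stromelysin-3, is a secreted MMP that is activated inside the cell by furin and acts poorly on classical matrix proteins. It is found on chromosome 10 (75923222 to 75936496, minus strand, ENSMUSG00000000901). It had 470.3, 485 and 468 CPM in Il22r+/+ and 1634, 1094 and 1023 CPM in Il22r-/-. Each Il22r-/- library had more than the highest Il22r+/+ library, and replicate 1 the most. Mmp11 rose 2.64-fold (log2 change 1.40 ± 0.16, edgeR adjusted p = 0.000139, 1.15 without Il22r-/- replicate 1). By FPKM it was the third most abundant member in Il22r+/+ (175 ± 3.03, SD, n = 3), after Timp2 (253 ± 2.87) and Timp3 (178 ± 15.1), and the most abundant in Il22r-/- (454 ± 117). The values of Mmp11 and Timp3 in Il22r+/+ lay within their spread of each other.

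Among the abundant MMP genes, Mmp14 and Mmp2 had lower transcript levels. Mmp14, the membrane-type collagenase, had 504, 528 and 493 CPM in Il22r+/+ and 284, 347 and 323 CPM in Il22r-/-, a fall with no overlap (log2 change -0.68 ± 0.09, edgeR adjusted p = 0.00018). Mmp2, the gelatinase that MMP14 activates, had 134, 143 and 139 CPM against 79.5, 110.1 and 110.7 CPM. It also fell without overlap, with Il22r-/- replicate 1 the lowest (log2 change -0.47 ± 0.12, edgeR adjusted p = 0.00852). Mmp9, the other gelatinase, did not pass the filter, with 1 read over the Il22r+/+ libraries and 5 over the others. The collagenases Mmp13 and Mmp8 had 4 reads each over all 6 libraries and Mmp1b none.

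Mmp19, a secreted MMP of vessels and basement membranes, fell from 38.8, 38.8 and 38.1 CPM to 8.51, 11.6 and 10.7 CPM. The 3 Il22r+/+ libraries were nearly equal, and each was more than 3 times as high as any Il22r-/- library (log2 change -1.91 ± 0.12, edgeR adjusted p = 1.35e-06). Tmem198b on the other strand covers 22.3% of its exon length. Tmem198b itself was also lower, at 963 and 573 reads, and its part in the Mmp19 value was not tested. Mmp23, by FPKM the next in level after Mmp14 among Il22r+/+ MMPs, moved little, from 119 to 123 CPM down to 99.2 to 110 CPM. Its log2 change of -0.20 ± 0.07 (edgeR adjusted p = 0.0369) lost the call with library size alone as scaling (log2 change -0.10, edgeR adjusted p = 0.25), with no filter (0.0736), with the replicate number as a block (0.0747) and without any of the 3 Il22r+/+ libraries or Il22r-/- replicate 1 (adjusted p 0.0767 to 0.117).

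The 6 membrane-type MMPs were all tested, and they split 3 and 3. Besides Mmp14, the brain-enriched Mmp24 fell from 5.56, 5.79 and 4.32 CPM to 0.735, 0.960 and 1.05 CPM (log2 change -2.51 ± 0.26, edgeR adjusted p = 3.46e-05). BC029722 covers 13.6% of its exon length on the other strand and was lower too (2895 and 1688 reads). Mmp15 rose from 3.10, 4.83 and 2.72 CPM to 19.1, 8.59 and 11.6 CPM, the Il22r-/- libraries all being higher but unequal (log2 change 1.88 ± 0.33, edgeR adjusted p = 0.00171). Mmp17, which is anchored by a glycolipid, rose from 0.585, 0.298 and 0.592 CPM to 1.73, 3.09 and 2.10 CPM (2.22 ± 0.39, edgeR adjusted p = 0.00109). Mmp16 was also called higher, and Mmp25, the other glycolipid-anchored member, was called lower from at most 1.13 CPM, a call lost without Il22r+/+ replicate 1 or 2 or Il22r-/- replicate 1 (edgeR adjusted p = 0.0553, 0.0573 and 0.0607). Mmp28, a secreted MMP outside this subgroup, was called lower at a mean of 1.44 and 0.532 CPM, and not without Il22r+/+ replicate 3 (edgeR adjusted p = 0.0518). Exons of 1700020L24Rik on the other strand, with 10 and 7 reads, cover 12.0% of its length. In summed FPKM the 6 genes were at 90.3 ± 3.40 (SD, n = 3) in Il22r+/+ and 58.0 ± 4.89 in Il22r-/-, most of it Mmp14 (87.6 and 53.9).

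**Figure D3:**
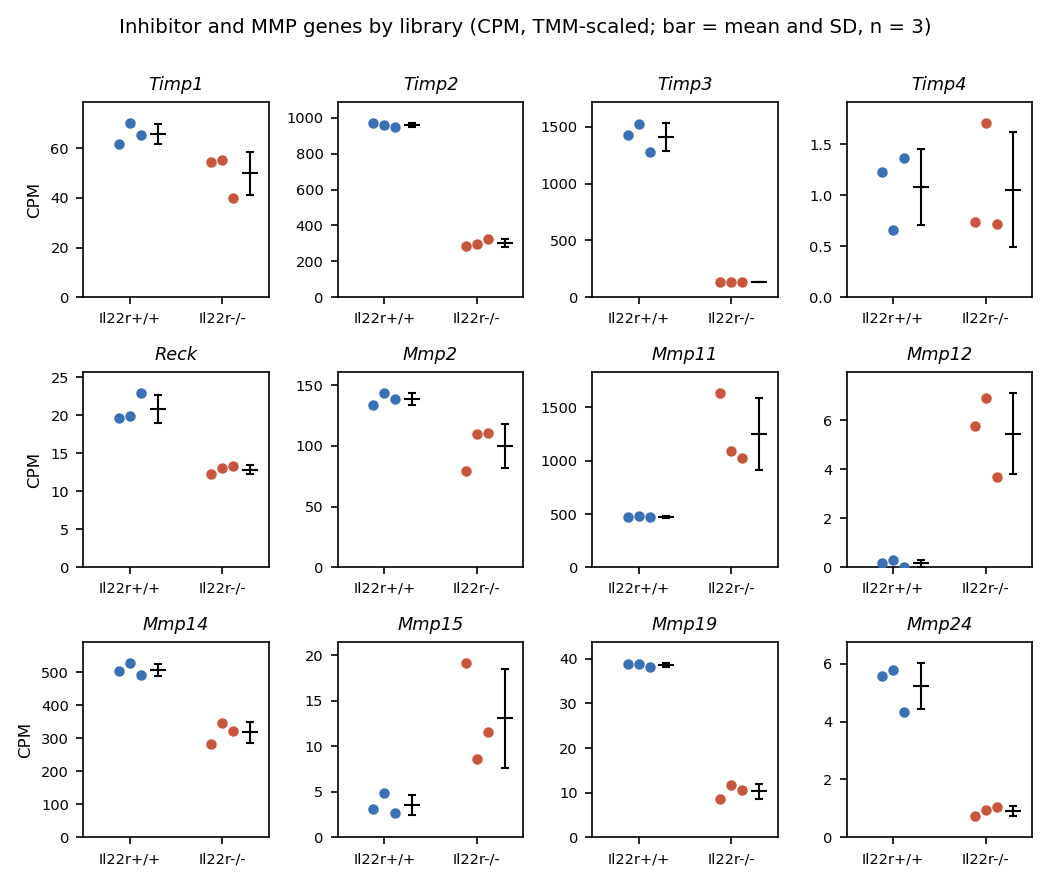
CPM of the 4 TIMPs, Reck and 7 MMPs in each library (points), with the mean and SD of 3 libraries as black bars, each panel on its own axis from 0. Timp4 is the only gene shown whose groups overlap, and Mmp11 and Mmp15 are highest in Il22r-/- replicate 1.

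The largest rise among the members was that of Mmp12, macrophage elastase. It had 0.175, 0.298 and 0 CPM in Il22r+/+ (8 reads in all) and 5.78, 6.94 and 3.68 CPM in Il22r-/- (296 reads). The ratio of pooled counts was 35.4 (95% exact limits 17.7 and 82.8, counting error only), and the edgeR log2 change was 5.06 ± 0.53 (adjusted p = 4.12e-05). It was 5.84 without Il22r+/+ replicate 2, which held 5 of the 8 Il22r+/+ reads. Mmp12 passed the read filter through the Il22r-/- libraries alone, so its p-value is not separate support for the rise. The 11 macrophage markers summed to 60.2, 89.2 and 29.3 CPM in Il22r-/- replicates 1 to 3 and to 9.24, 9.13 and 11.7 CPM in Il22r+/+. Their order was that of Mmp12 over the Il22r-/- libraries and the reverse of it over the Il22r+/+ libraries. An order of 3 libraries is a description only. Each of the 11 had at least 3 reads over the Il22r+/+ libraries. Adam8, an ADAM of myeloid cells, was called higher as well, at 3.63, 3.28 and 2.90 CPM against 5.57, 7.20 and 4.86 CPM (log2 change 0.85 ± 0.22, edgeR adjusted p = 0.00852). It narrowly missed the threshold without Il22r-/- replicate 2 (log2 change 0.66). The part of macrophages in these values was not tested.

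Mmp12 was the only gene of its neighbourhood that passed the read filter. It lies in a stretch of chromosome 9 (7272514 to 7699585, 427 kb) that holds 9 of the 22 MMPs: Mmp13, Mmp12, Mmp1b, Mmp3, Mmp10, Mmp8, Mmp27, Mmp20 and Mmp7. The 8 others were below the filter, 4 of them (Mmp1b, Mmp3, Mmp20 and Mmp7) without a read in any library. Mmp10, a stromelysin, had 4 and 7 reads (Il22r+/+ first), and Mmp27 had 0 and 6, where a count of 0 allows up to 3 reads. Outside this stretch, the MMPs below the filter were Mmp9, given above, and Mmp21, with 2 and 0 reads. At this depth no statement on a change of these genes is possible.

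The promoters of tested members and of those below the read filter are described here by base composition and motifs. RefSeq windows of 250 bases before the start site (GRCm38.p6) were matched by symbol for 53 of the 84 members, 30 of the 47 tested and 23 of the 37 others. Adam19 had 3 windows, and Mmp12, Mmp23 and Mmp7 had 2 each. Of these only the window nearest the outermost gene start was used. The windows of Adamts20, Adam34 and Adam1a lay 61068, 44489 and 23787 bases inside the outermost start of the deposited gene. They may not be the main promoters of these genes, and Adamts20 is counted below among the members with a GC box. The median GC content was 65.6% in the tested members, 41.6% in those below the filter and 52.4% over all 32851 promoters. The GC box GGGCGG, the TATA box TATAAA, the AP-1 motif TGANTCA and the STAT motif TTCNNNGAA were searched on both strands, and a match is a description, not a binding site. A GC box stood in 22 of 30 tested members and 3 of 23 others, against 32.7% of all promoters. A TATA box stood in 1 of 30 (Adamts1) and 11 of 23, against 12.4%, and an AP-1 motif in 1 of 30 (Adam19) and 9 of 23, against 6.75%. The STAT motif stood in 0 of 30 and 2 of 23, against 7.02%. Several genes below the filter are neighbours related in sequence, and 6 of the 9 chromosome 9 MMPs (Mmp13, Mmp1b, Mmp3, Mmp10, Mmp20 and Mmp7) held both an AP-1 motif and a TATA box. A window was found for 15 of the 21 lower and 6 of the 14 higher members. Those with a window did not divide by these motifs: 13 of 15 lower and 4 of 6 higher genes held a GC box, and none held the other 3. With so few windows this does not describe the higher members as a group.

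The windows of the gene with the deepest fall among the inhibitors, the gene with the highest level in Il22r-/-, and from the chromosome 9 group the gene that rose and a neighbour below the filter (Mmp13) are shown to make that contrast visible. They are written 5′ to 3′ on the gene's strand, and capitals mark matches of the 4 motifs. The Timp3 window is chr10:86300162-86300411 (plus strand) and the Mmp11 window chr10:75932503-75932752 (minus strand, 3994 bases inside the outermost start of the deposited gene). The Mmp12 window is chr9:7344147-7344396 and the Mmp13 window chr9:7272264-7272513, both plus strand.
Timp3: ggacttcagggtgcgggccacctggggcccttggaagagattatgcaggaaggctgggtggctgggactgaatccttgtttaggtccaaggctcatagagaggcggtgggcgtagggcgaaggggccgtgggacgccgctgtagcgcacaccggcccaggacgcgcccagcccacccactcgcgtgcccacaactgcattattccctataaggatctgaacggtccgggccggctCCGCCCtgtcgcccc
Mmp11: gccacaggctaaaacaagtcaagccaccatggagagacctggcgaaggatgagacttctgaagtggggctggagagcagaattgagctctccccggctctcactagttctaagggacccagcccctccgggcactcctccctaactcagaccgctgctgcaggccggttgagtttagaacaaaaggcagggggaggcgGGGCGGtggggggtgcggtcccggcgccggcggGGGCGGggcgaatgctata
Mmp12: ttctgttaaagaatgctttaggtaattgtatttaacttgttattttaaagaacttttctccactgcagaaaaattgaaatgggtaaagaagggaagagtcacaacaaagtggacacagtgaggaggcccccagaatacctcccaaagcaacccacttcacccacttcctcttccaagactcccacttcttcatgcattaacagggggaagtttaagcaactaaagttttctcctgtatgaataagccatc
Mmp13: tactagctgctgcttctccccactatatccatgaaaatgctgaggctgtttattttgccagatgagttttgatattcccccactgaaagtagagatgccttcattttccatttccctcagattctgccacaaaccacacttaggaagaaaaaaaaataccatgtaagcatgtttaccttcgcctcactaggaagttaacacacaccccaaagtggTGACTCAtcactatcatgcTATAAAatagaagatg
Timp3 has 1 GC box match, 15 bases before the start site, and Mmp11 has 2, at 52 and 19 bases. Mmp12 has no match to any of the 4 in the window shown, and its other RefSeq window is not described. Mmp13 has the AP-1 motif 35 bases and the TATA box 16 bases before its annotated start.

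The principal sheddases were not called. Adam10 had 186, 209.6 and 185 CPM in Il22r+/+ and 192, 209 and 213 CPM in Il22r-/- (log2 change 0.08 ± 0.08, edgeR adjusted p = 0.458). Adam17, which releases tumour necrosis factor and EGF-like ligands, had 95.9, 101 and 105 CPM against 93.1, 102 and 102 CPM (-0.02 ± 0.07, adjusted p = 0.833). For both genes the groups overlapped. The sign of the Adam17 value changed with library size alone as scaling (0.081). Adam9, another membrane sheddase and by FPKM the most abundant ADAM (120.0 ± 4.89 and 60.6 ± 6.11, SD, n = 3), was called lower. Its libraries had 493, 459 and 489 CPM against 223, 271 and 248 CPM (log2 change -0.96 ± 0.09, edgeR adjusted p = 1.69e-05). Adam15, which carries an integrin-binding motif, was called lower at 73.0 to 79.2 CPM against 42.2 to 56.5 CPM. Exons of 4731419I09Rik cover 20.6% of its length on the other strand, and that gene had 7 and 18 reads (Il22r+/+ first). The part of this overlap in the Adam15 value was not tested.

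Adam33, an ADAM of mesenchymal cells, fell from 17.4, 13.4 and 16.4 CPM to 1.84, 2.45 and 1.97 CPM. No Il22r-/- library came near the Il22r+/+ range (7.50-fold lower, log2 change -2.91 ± 0.18, edgeR adjusted p = 1.26e-06). The theca and stroma markers were lower in sum in Il22r-/-, but of 6 tested only 2 were called lower, and 1 was called higher. Their part in the Adam33 fall was not tested. Adam2, the fertilin beta subunit of sperm, was detected at 1.87, 3.28 and 1.54 CPM and fell to 0.525, 0.587 and 0.525 CPM (113 and 29 reads, log2 change -2.01 ± 0.39, edgeR adjusted p = 0.00185). Adam23, which has no protease activity, and Adam11 were called lower and higher. Adam23 lost its call with library size alone (edgeR adjusted p = 0.0999), in limma on FPKM with either pseudocount (0.0899 and 0.101) and without Il22r+/+ replicate 1 or 2 or Il22r-/- replicate 1 (edgeR adjusted p = 0.0694, 0.105 and 0.0581), and Adam11 without Il22r+/+ replicate 2 or 3 or Il22r-/- replicate 1 (0.0970, 0.0844 and 0.0918). Adam1a, Adam5, Adam19 and Adam22 were not called. Exons of other genes cover 63.7% of the length of Adam1a, among them Mapkapk5 and Tmem116 (198 and 128 reads in Il22r+/+, 197 and 76 in Il22r-/-), and 10.1% of that of Adam19. Adam19 passed without Il22r-/- replicate 1 (edgeR adjusted p = 0.0492) or replicate 3 (0.0398), and Adam5 without Il22r+/+ replicate 2 (0.0214), in which 12 of its 14 Il22r+/+ reads lay.

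The remaining 20 ADAMs were below the filter, 11 of them without a read. These include Adam24, Adam25, Adam20 and Adam39 in 152 kb of chromosome 8 and other members best known from testis. Adam12, an ADAM of muscle and stromal cells, had, below the filter, 0, 3 and 0 reads against 9, 14 and 6 (ratio of pooled counts 9.25, 95% exact limits 2.87 and 47.5). Adam28 went the other way, with 5, 5 and 3 reads against 0, 1 and 1 (ratio 0.147, interval 0.0161 to 0.650). Both intervals cover counting error only and not the spread between libraries. Adam32 (18 and 14 reads), Adam4 (10 and 9), Adam21 (5 and 5) and Adam1b (9 and 3) had intervals that included a ratio of 1.

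Among the ADAMTS genes 7 rose and 1 fell. Adamts19, an orphan ADAMTS, rose 10.1-fold, from 2.98, 4.24 and 2.25 CPM to 21.4, 36.8 and 37.7 CPM (log2 change 3.34 ± 0.29, edgeR adjusted p = 4.36e-05). Its lowest Il22r-/- library was about 5 times the highest Il22r+/+ library. Adamts6 had 8.19, 7.58 and 10.0 CPM against 32.9, 32.8 and 34.7 CPM, with little spread in either group (1.96 ± 0.12, edgeR adjusted p = 1.17e-06). Adamts16 had 4.45, 6.80 and 5.63 CPM against 14.0, 13.6 and 12.5 CPM (1.25 ± 0.17, edgeR adjusted p = 0.000192). Adamts2, which removes the amino-terminal propeptide of fibrillar procollagens, rose 2.01-fold from 40.4, 39.7 and 37.2 CPM to 70.0, 85.2 and 81.1 CPM (1.01 ± 0.09, edgeR adjusted p = 1.11e-05). The other procollagen proteinases, Adamts3 and Adamts14, were not called (edgeR adjusted p = 0.161 and 0.822).

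The versican-cleaving ADAMTS proteases behaved differently from each other. Adamts5 had 63.3, 68.3 and 57.6 CPM in Il22r+/+ and 123, 190.4 and 276 CPM in Il22r-/-. The rise was 3.11-fold, and the Il22r-/- libraries spread over more than a factor of 2 (log2 change 1.64 ± 0.29, edgeR adjusted p = 0.005, 1.30 without Il22r-/- replicate 3). Adamts1, which shares a stretch of 108 kb of chromosome 16 with it, had 196, 229.6 and 184 CPM against 208, 207 and 222 CPM. The groups overlapped (0.06 ± 0.09, edgeR adjusted p = 0.594), and the sign was the other without Il22r+/+ replicate 3 (-0.0066). Adamts9 fell, from 446, 441 and 414 CPM to 342, 318 and 349 CPM (-0.37 ± 0.08, edgeR adjusted p = 0.00332). Exons of other genes, mainly A730049H05Rik (1546 and 1006 reads, called lower), cover 12.0% of its length, and their part was not tested. Adamts4 had 27.5, 23.0 and 31.2 CPM against 18.9, 25.3 and 25.4 CPM and was not called (-0.23 ± 0.15, adjusted p = 0.219). In the sum of all 7 versican-cleaving genes the FPKM was 80.8 ± 4.84 (SD, n = 3) and 86.4 ± 10.4, values that overlapped. Of this subgroup, Adamts15 was below the filter with 2, 0 and 0 reads against 7, 4 and 0. Its ratio of pooled counts was 5.26 (95% exact limits 1.15 and 48.9, counting error only). Adamts8 and Adamts20 had 6 and 13 reads in all.

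Adamts10 and Adamts12 were called higher by small amounts, with log2 changes of 0.20 ± 0.07 and 0.53 ± 0.18 (edgeR adjusted p = 0.0474 and 0.0326). Adamts10, a fibrillin-binding protease, lost its call under 6 of the 8 other tools or settings and in 5 of the 6 fits without 1 library. Adamts12 lost it in limma on FPKM and in 4 of those 6 fits. Adamts7 was not called. Adamts13, Adamts17 and Adamts18 had 5, 31 and 5 reads in all.

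The 4 tested ADAMTS-like genes, which lack the protease domain and bind fibrillin microfibrils or other matrix, were all called lower. Adamtsl1 fell from 3.86, 5.49 and 2.37 CPM to 0.315, 0.373 and 0.591 CPM (198 and 22 reads, log2 change -3.20 ± 0.41, edgeR adjusted p = 0.000135). Adamtsl4 had 31.8, 33.9 and 28.3 CPM against 14.3, 15.4 and 17.0 CPM (-1.01 ± 0.11, edgeR adjusted p = 4.92e-05). Both changes were without overlap. Adamtsl5 fell by 0.97 on the log2 scale, just short of 2-fold. Adamtsl3, with 45 and 15 reads, had a log2 change of -1.60 ± 0.54 and lost its call in DESeq2 (adjusted p = 0.0576), in limma on log2(FPKM + 1) (log2 change -0.11, adjusted p = 0.127) and log2(FPKM + 0.1) (-0.66, adjusted p = 0.0532), and in each of 5 fits without 1 library, though not without Il22r-/- replicate 3. Adamtsl2 had 9 reads in all.

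**Figure D4:**
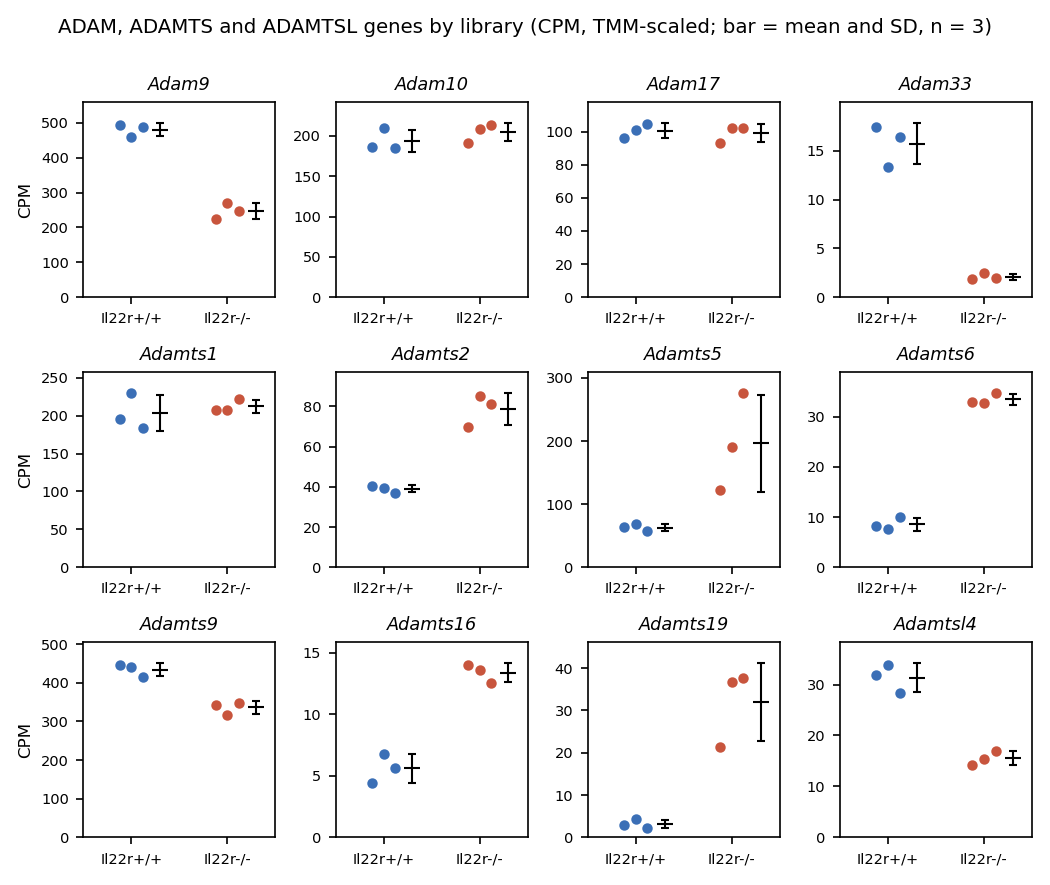
CPM of 4 ADAM, 7 ADAMTS and 1 ADAMTSL gene in each library (points), with the mean and SD of 3 libraries as black bars, each panel on its own axis from 0. Adam10, Adam17 and Adamts1 overlap between genotypes, whereas the Il22r-/- libraries of Adamts19, Adamts6 and Adamts5 all lie above the Il22r+/+ ones.

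Ranked by mean FPKM, the 10 most abundant members in Il22r+/+ were Timp2, Timp3, Mmp11, Adam9, Mmp14, Timp1, Mmp23, Mmp2, Adam10 and Adamts1. In Il22r-/- they were Mmp11, Timp2, Adam9, Timp1, Mmp14, Mmp23, Adam10, Adamts1, Mmp2 and Adamts9. Timp3 went from rank 2 to rank 12 (16.7 ± 0.357 FPKM in Il22r-/-, SD, n = 3), and Adamts5 from rank 17 to rank 11 (18.4 ± 7.33). The levels of Adamts5 and Timp3 in Il22r-/- did not differ beyond their spread, nor did those of Adam9, Timp1 and Mmp14 (60.6 ± 6.11, 56.6 ± 9.36 and 53.9 ± 5.66 FPKM).

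Genes that act on these proteases or are cut by them were read from lists of known regulators and substrates. Of 26 regulators of maturation, trafficking or activity 22 were tested, 4 called higher and 10 lower, with a median log2 change of -0.27. The protease inhibitor A2m rose from 4 reads to 409, Thbs2, which clears MMP2, from 0.396 ± 0.243 to 2.68 ± 0.456 CPM (SD, n = 3) and the testican Spock2 from 8.97 ± 1.02 to 56.0 ± 6.22 CPM. The proprotein convertase Furin and the ADAM17 trafficking gene Rhbdf2, named after their values were seen, were called lower (log2 changes -0.45 ± 0.11 and -0.99 ± 0.09). Of 8 other metzincin proteases 3 were tested, and Bmp1, the procollagen C-proteinase, and Pappa fell (log2 changes -0.89 ± 0.07 and -0.71 ± 0.23). Among 22 matrix substrates 19 were tested, 7 called higher and 11 lower (median -0.56). The versican gene Vcan rose (log2 change 3.43 ± 0.17) and Col1a2 went up from 1.61 ± 1.18 to 61.3 ± 32.9 CPM, while Dcn and Bgn fell (log2 changes -4.50 ± 0.28 and -2.69 ± 0.22). Among 26 membrane proteins shed by ADAMs 22 were tested, 3 called higher and 12 lower (median -0.38). Csf1 fell from 272 ± 16.5 to 24.5 ± 2.18 CPM, Nrg1 from 139 ± 11.2 to 21.5 ± 2.65 CPM and Egf from 25.1 ± 1.18 to 7.29 ± 0.654 CPM, and the chemokine Cx3cl1 rose (log2 change 1.75 ± 0.16). Dcn and Col1a2 are also on the list of theca and stroma markers. The called shares of these lists are to be read beside the 45.7% of all tested genes.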

How the data were processed

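RNA of 6 granulosa cell libraries (3 Il22r+/+, 3 Il22r-/-) was measured. The authors deposited whole-number read counts per gene. The submitters' processing notes name featureCounts (version 1.5.0-p3) and mm10, and no aligner, strand setting or read filter was found in the labels. Without a known strand setting, reads of overlapping genes cannot be assigned, so overlaps of at least 10% of exon length are given for the tested members. The authors also deposited FPKM values, which equalled count over gene length and a library constant. The constant was 0.936 to 0.939 times the count total in Il22r+/+ and 1.00 to 1.05 times in Il22r-/-. The TMM factors split the genotypes likewise (0.963 to 0.967 and 1.02 to 1.05), so FPKM is not a separate check of the scaling. FPKM was used to compare levels between genes and as an alternative.

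Genes passing filterByExpr (15227) were scaled by TMM and tested in edgeR 4.0.16 (R 4.3.3; glmQLFit, robust, glmQLFTest; genotype only), with Benjamini-Hochberg adjustment over all of them. The fit was tested on simulated counts. Log2 changes are Il22r-/- minus Il22r+/+, and standard errors come from the F statistic. Replicates differed by more than sampling noise (chi-square per gene 4.66 to 27.0), so none was counted as a duplicate. The labels do not say whether libraries came from separate animals or cultures, so p-values measure only the spread between these libraries, which may be technical. Values per library were given for the TIMPs and Reck, for called members averaging 1 CPM or more and changed 2-fold or more, and for 10 members chosen by name. Members below the filter were named with their reads from 10 reads up, and up to 4 called genes by size of change from each related list. For 1 related gene the result is not reported here. Adam8, Adam9 and other members named outside this rule were chosen after their values were seen. The members and lists were chosen with earlier results of these data known. Ensembl identifiers and positions of all 84 members matched GENCODE M21, and promoter sequences came from RefSeq. Alternatives were DESeq2 1.42.0, edgeR with DESeq2 size factors, library size alone, no filter, a stricter filter (1 CPM in 3 libraries), limma 3.58.1 on log2 FPKM with a pseudocount of 1 or of 0.1, the replicate number as block, and leaving out each library.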

Additional observations from a re-analysis of the deposited data

How the results depend on the processing

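The counts of called members kept within 1.5 times of the reported 14 higher and 21 lower under every alternative run: 11 to 14 higher and 16 to 21 lower without 1 library, and 12 to 14 and 18 to 21 under the others. The median log2 change of tested members, -0.20, was -0.10 with library size alone, -0.079 with no filter (69 members), -0.11 with the stricter filter (44 members) and -0.049 in limma on log2(FPKM + 1), and -0.26 to -0.13 without 1 library. It stayed below 0 in all of these, and the cause of the shifts was not tested, apart from the change of members tested. Library size alone moved the median of all genes from 0.03 to 0.13 and the share of all calls that were higher from 51.6% to 63.6%. Genes without a call changed sign: Adam17 (0.081 with library size alone, -0.064 to 0.015 without 1 library), Adamts1 (-0.0066 to 0.16 without 1 library, the sign changing without Il22r+/+ replicate 3) and Timp4 (0.077 with library size alone, -0.58 to 0.18 without 1 library). Timp1 lost its call in 3 settings, given in the report, and the other called genes named per library under the naming rule kept theirs in every setting. On log2(FPKM + 1) the changes of low genes shrank, Mmp12 to 0.78. With the replicate number as a block 13 members were higher and 20 lower (6405 genes called in all, against 6963), Adamts10 and Mmp23 being the members lost. Same-numbered libraries did not deviate together (correlations 0.03, -0.05 and -0.04). With 3 libraries per group this cannot show whether the samples were collected or prepared in pairs. For genes under about 10 reads, depth limited any comparison.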
